A study of Danio rerio with 16 samples.

Results

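The account covers single nuclei of adult zebrafish (*Danio rerio*) hearts homozygous for the *cited4a* allele pt38a, comparing the library labelled 3 dpa with the library labelled UI. Every barcode of these libraries with at least 500 UMIs (unique molecular identifiers, each standing for 1 captured RNA molecule) and at most 5% of its UMIs on mitochondrial genes was taken as a nucleus. This gave 9932 nuclei labelled UI and 9140 labelled 3 dpa, together 19072 of the 37644 nuclei that pass the same limits in the whole series and 68320 deposited barcodes. The series also holds wild-type (WT) hearts in the same conditions, and its title names cardiomyocyte dedifferentiation and proliferation during heart regeneration as its subject. UI stands for uninjured hearts with genotype pt38a/pt38a, and 3 dpa for hearts of the same genotype taken 3 days after about 20% of the ventricle had been cut away. Whole hearts were flash frozen, their nuclei isolated, and RNA counted at its 3′ end. The labels list 4 samples a group, but the counts of a group are in 1 matrix. Each condition is therefore 1 sample, no difference below has a replicate check, no test was possible, and intervals (95%) cover counting error only. The sources used here do not give ages, the number of animals pooled or the molecular lesion of pt38a.

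Adult zebrafish replace lost ventricular muscle by division of surviving cardiomyocytes, which partly take their contractile apparatus down before they divide. Around them, fibroblasts and epicardial cells lay down matrix, and macrophages and other blood cells enter the wound. CITED proteins are transcriptional co-regulators without a DNA-binding domain of their own, which bind the CBP and p300 co-activators and in mammals modulate hypoxia-inducible and other transcription factors.

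The kept nuclei labelled UI held 12387006 UMIs (median 973 a nucleus) and those labelled 3 dpa 11412089 (median 950.5). The limits removed unequal parts of the libraries. Of 35484 barcodes labelled UI, 28.0% were kept, and of 12360 labelled 3 dpa, 73.9%. Among barcodes with at least 500 UMIs, 36.4% of those labelled UI and 5.34% of those labelled 3 dpa were over the mitochondrial limit. The libraries shared 133 barcodes, of which 36 and 90 were among the nuclei kept. Defining cardiomyocyte markers were present throughout, with at least 2 of 500 UMIs in 98.6% and 99.9% of nuclei. So wide a spread also covers nuclei of other cell types, and UMIs of free RNA were not removed. Levels are given as CPM, UMIs summed over all nuclei of a library and scaled to counts per 1000000 of its UMIs, over the 27758 genes of the mutant gene table. Ratios are log2 of CPM + 10, with the library labelled 3 dpa over that labelled UI. A positive ratio means a higher level under the 3 dpa label, and the added 10 understates the ratio of low genes.

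The gene that is mutated, *cited4a* (ENSDARG00000035990), was among the genes with the highest ratios. It gave 29.1 CPM (26.1 to 32.2; 360 UMIs) in the library labelled UI and 336 CPM (325 to 346; 3829 UMIs) in that labelled 3 dpa, a log2 ratio of 3.14 (3.02 to 3.27). It was detected in 301 of 9932 and 2653 of 9140 nuclei. The WT pair ran the other way, from 153 CPM under the UI label to 53.7 CPM under 3 dpa. RNA of a mutant allele may still be made and counted, so these levels do not check the genotype. The paralogue *cited4b* gave 12.1 CPM (150 UMIs) and 6.40 CPM (73 UMIs), *cited1* 6.14 CPM and 4.29 CPM, and *cited2* 1.61 CPM and 0.263 CPM (20 and 3 UMIs). None of these paralogues was higher under the 3 dpa label. The co-activator gene *crebbpa* was at 120 CPM and 110.0 CPM, and *ep300a* at 56.4 CPM and 36.4 CPM. The co-activator and paralogue genes were picked for display after their values had been seen.

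Among 8746 genes with a mean of at least 10 CPM, 332 (3.80%) were at least 2-fold higher and 675 (7.72%) at least 2-fold lower under the 3 dpa label. The higher genes had a median level of 93.2 CPM and the lower ones of 32.8 CPM. The higher genes together took up 3.50% of UMIs labelled UI and 11.9% of UMIs labelled 3 dpa, and the lower genes 6.98% and 2.03%. The median of all genes lay at -0.22, and 70.0% of genes were below 0. With TMM (trimmed mean of M-values) scaling, which brought that median close to 0, 501 genes were higher and 416 lower. With median-of-ratios scaling the counts were 504 and 409. The share of higher genes among those past 2-fold was thus 33.0% on CPM and 54.6% or 55.2% after scaling. The scalings moved genes unequally, low ones less. TMM took the median of sarcomere genes from 0.35 to 0.60 and that of DNA replication genes from -0.45 to -0.36. Some small negative ratios change their sign under them. Counts past 2-fold and directions below are taken around 0, without allowing for the median of -0.22. That median leaves out genes under a mean of 10 CPM, which list medians include. Over all genes with a UMI it was -0.045. The shares of 3.80% and 7.72% are the background for the counts of list members below. Those lists were drawn up with earlier results of these data known, so the counts are descriptions only.

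**Figure D1:**
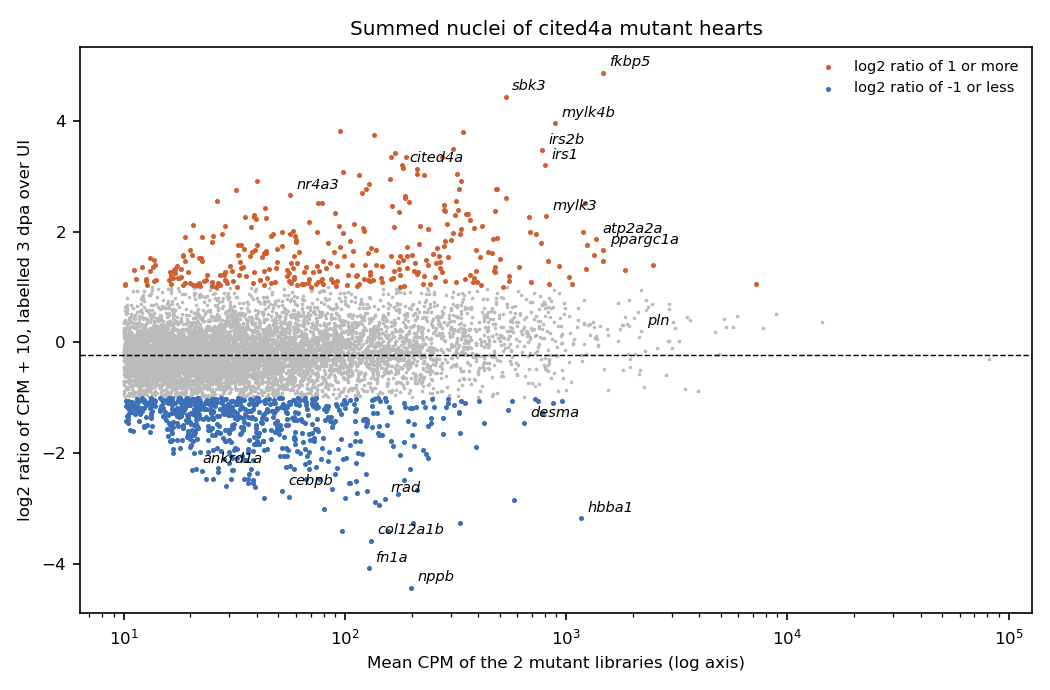
Each point is 1 of 8746 genes, with its mean CPM over both mutant libraries on a log axis and its log2 ratio (CPM + 10, 3 dpa label divided by UI label) on the vertical axis. Orange points are at least 2-fold higher (332), blue points at least 2-fold lower (675), and the dashed line is the median of -0.22; *fkbp5* is at the top and *nppb* at the bottom.

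The highest ratio belonged to *fkbp5*, which encodes a co-chaperone of the glucocorticoid receptor and is induced by glucocorticoids in mammals and fish. It gave 87.6 CPM (82.5 to 93.0) in the library labelled UI and 2850.2 CPM (2819 to 2881) in that labelled 3 dpa, a log2 ratio of 4.87 (4.79 to 4.95). It was detected in 917 of 9932 nuclei against 8132 of 9140. These counts include UMIs of free RNA, and barcodes under 500 UMIs had nearly the same *fkbp5* level as the nuclei (2849 CPM under 3 dpa). *sbk3*, which encodes an SH3-domain-binding kinase, went from 37.6 to 1026 CPM (4.44), and *mylk4b*, of the myosin light chain kinase family, from 98.2 to 1679 CPM (3.96). *bpgm*, whose enzyme makes a haemoglobin-binding metabolite of glycolysis, stood at 36.9 and 647 CPM (3.81). All 4 were below 100 CPM under the UI label and above 640 CPM under 3 dpa.

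The other 16 of the 20 genes with the highest ratios lay between 2.95 and 3.76. The insulin receptor substrates *irs2b* (120 to 1435 CPM, 3.48) and *irs1* (150 to 1462 CPM, 3.20), adaptors that pass on the insulin and IGF signal, were among them. Their paralogue *irs2a* stood at 18.3 and 119 CPM (2.19). Enzymes and nuclear factors of energy metabolism were in the same group, with *pparab*, a receptor that turns on fatty acid oxidation genes (61.3 and 580 CPM, 3.05), *prodha*, proline dehydrogenase (20.3 and 317 CPM, 3.43), and *g6pcb*, a catalytic subunit of glucose phosphatase (27.3 and 334 CPM, 3.20). The remaining members were the phosphatase gene *pptc7a*, the ubiquitin pathway genes *ube2ql1*, *peli1a* and *klhl38b*, the kinase genes *stk17al*, *stk35* and *mapk4*, the transcription factor gene *klf13*, the membrane protein gene *lmbr1l*, the anion transporter gene *slc26a5* and *cited4a* itself. All 20 were detected in at least 1585 nuclei of the 3 dpa library and at most 1349 nuclei of the UI library.

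**Figure D2:**
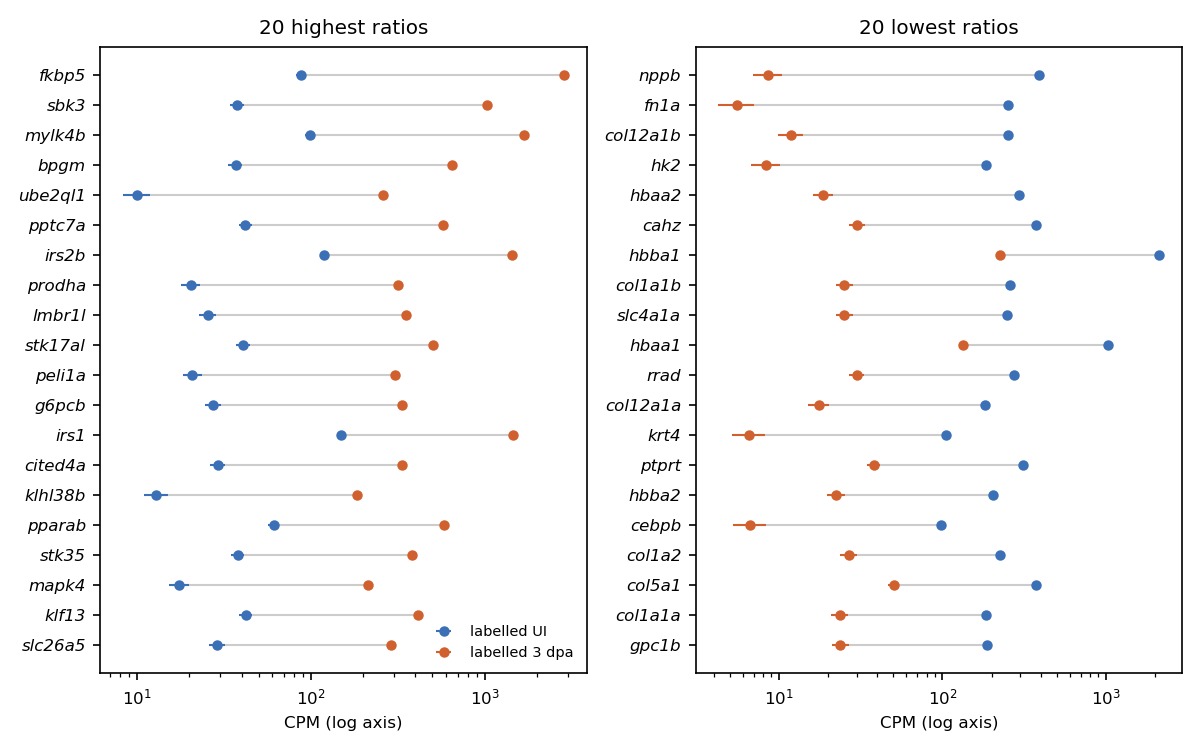
CPM on a log axis of the 20 genes with the highest (left) and the 20 with the lowest log2 ratios (right) among genes with a mean of at least 50 CPM. Blue points are the library labelled UI, orange points that labelled 3 dpa, bars are exact Poisson intervals for counting error, and within each gene the libraries are far apart against those bars.

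Genes of the glucocorticoid and fasting response formed the list with the highest median, 0.45 over 40 genes present in the gene table. In cardiomyocyte-rich nuclei, defined below, that median was 0.18. The WT pair gave a median of 0.21, with 24 of 40 genes above 0. Of the 32 members at a mean of 10 CPM or more, 13 were at least 2-fold higher and 2 at least 2-fold lower, against 3.80% and 7.72% of all genes. Their summed level was 4642 CPM under UI and 14102 CPM under 3 dpa, of which *fkbp5* alone made up 87.6 and 2850.2 CPM. *fbxo32*, a ubiquitin ligase of muscle atrophy, stood at 85.4 and 552 CPM (2.56), the stress sensor gene *gadd45ga* at 96.3 and 549 CPM (2.40), and *klf9*, a glucocorticoid target in mammals, at 1.37 and 39.6 CPM (2.12). The transcription factor genes *zbtb16a* (473 and 1915 CPM), *zbtb16b* (130 and 533 CPM, 1.96) and *foxo3b* (558 and 1923 CPM, 1.77) were higher too, as were *pdk4*, which limits glucose oxidation (95.7 and 308 CPM, 1.59), and *tsc22d3* (31.8 and 79.9 CPM). The members at least 2-fold lower were *angptl4*, an inhibitor of lipoprotein lipase (88.8 and 35.3 CPM, -1.12), and the kinase gene *sgk1* (399 and 125 UMIs, -1.01). The receptor gene *nr3c1* itself stood at 443 CPM (5488 UMIs) and 453 CPM (5171 UMIs), a ratio of 0.03. Several of these names were picked after their values had been seen. The list itself was drawn up with earlier results of these data known, so its share past 2-fold is a description, not a test of enrichment.

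A minority of contractile genes passed 2-fold, more of them upward. Of 33 sarcomere genes at 10 CPM or more, 7 were at least 2-fold higher and 3 at least 2-fold lower. The shares of all genes were 3.80% and 7.72%, so that of lower members was near the background. The median over 42 sarcomere genes was 0.35, and their summed level was 45989 CPM under UI and 65178 CPM under 3 dpa. *mylk3*, the cardiac myosin light chain kinase, stood at 270 and 1350.3 CPM (2.28), *tcap*, which anchors titin at the Z-disc, at 20.5 and 99.9 CPM (1.85), and *myoz2b*, a calcineurin-binding Z-disc protein, at 84.7 and 270 CPM (1.56). The ventricular myosin gene *myh7l* went from 4685 to 9810 CPM (1.06). The 3 lower genes were *myh7* (101 and 34.9 CPM, -1.31), *myh6* (20.8 and 3.07 CPM, -1.24) and *tpm1* (31.1 and 10.2 CPM, -1.03). Cardiomyocyte-rich nuclei, defined below, were 13.8% of the library labelled UI and 35.9% of that labelled 3 dpa. Within them the summed level of sarcomere genes was 74398 and 77979.5 CPM and the median ratio 0.09. The markers that define these nuclei are mostly sarcomere genes and gave 66088 and 67985 CPM there. The closeness of the sums is therefore partly set by the selection. Closely related myosin and actin copies share 3′ sequence, so the split of UMIs between paralogues is uncertain.

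A few genes of calcium handling and conduction were higher, with 4 of 33 at least 2-fold higher, 1 lower (*kcnj5*, -1.06) and a median of 0.09 over 44 genes. The shares of all genes at least 2-fold higher and lower were 3.80% and 7.72%. The calcium pump gene *atp2a2a* (SERCA2) stood at 584 (571 to 598) and 2157 (2130.3 to 2184) CPM, a ratio of 1.87. The kinase gene *camk2d2* stood at 195 and 740 CPM (1.87), the pacemaker channel gene *hcn4* at 256 and 744 CPM, and *kcnh6a*, the main repolarising potassium channel of the zebrafish heart, at 1058 and 2633 CPM (1.31). Phospholamban (*pln*), the inhibitor of the pump, is in the mutant gene table but not in the WT table. It gave 2020.4 CPM (25027 UMIs) and 2326 CPM (26542 UMIs), a ratio of 0.20. The pump therefore had a much larger ratio than its inhibitor. Of 35 cardiac transcription factor genes, *ppargc1a*, a co-activator of mitochondrial biogenesis (702 and 2246 CPM, 1.66), and *tbx5b* (42.0 and 122 CPM, 1.35) were at least 2-fold higher. *tbx18*, *hand2*, *irx1a* and *pbx3b* were at least 2-fold lower, with ratios from -1.62 to -1.12. Neither count was far from the 3.80% and 7.72% of all genes. The median of that list, -0.15, changed sign with both other scalings.

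Of 36 hypoxia genes at 10 CPM or more, 6 were at least 2-fold higher and 4 lower, beside 3.80% and 7.72% of all genes, with a median of -0.13. The share of lower members was thus near that of all genes. The higher ones included *epas1b* and *epas1a*, the HIF-2 alpha genes (50.7 and 301 CPM, 2.36, and 38.3 and 141 CPM, 1.64), *hif1al*, related to HIF-1 alpha (23.0 and 157 CPM, 2.34), and *mxi1*, a MYC antagonist (86.3 and 390 CPM, 2.06). The glucose transporter gene *slc2a1a* (4.28 and 20.9 CPM, 1.12) and *pdk4* were the other higher ones. The lower ones were *pfkfb3* (29.8 and 3.77 CPM, -1.53), *igfbp1a* (39.4 and 10.8 CPM, -1.25), *p4ha1b* (87.9 and 31.2 CPM, -1.25) and *ndrg1a* (36.7 and 10.3 CPM, -1.21). Of the 34 glycolysis genes measured at 10 CPM or more, 5 were lower and 1 higher. *hk2*, a hexokinase gene, had the lowest ratio of the list, -3.41. It gave 185 CPM (177 to 193, 2290 UMIs) under UI and 8.32 CPM (6.74 to 10.2, 95 UMIs) under 3 dpa. The glucose transporter gene *slc2a3b* (66.5 and 3.77 CPM, -2.47) and *gapdhs* (186 and 63.5 CPM, -1.42) were lower as well, and *slc2a1a* was the higher one. The medians of glycolysis (0.01) and of fatty acid oxidation and TCA cycle genes (-0.02) lay near 0 and changed sign between settings. Nuclear genes of the respiratory chain had a median of 0.17, with 53 of 71 above 0 and 1 past 2-fold (*cox7a1*, 27.4 and 69.6 CPM, 1.09). The 13 mitochondrially encoded genes had a median of -0.57, in a comparison where the limit on mitochondrial UMIs removed far more barcodes from the UI library.

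At the low end, *nppb*, which encodes the natriuretic peptide released by stretched or injured heart muscle, had the lowest ratio of the named genes. It gave 390.5 CPM (380 to 402; 4837 UMIs) in the library labelled UI and 8.59 CPM (6.97 to 10.5; 98 UMIs) in that labelled 3 dpa, a ratio of -4.43 (-4.56 to -4.29). It was found in 2835 of 9932 nuclei against 83 of 9140. *ankrd1a*, a stretch-induced muscle gene raised next to heart wounds in zebrafish, stood at 41.7 CPM (517 UMIs) and 0.613 CPM (7 UMIs), a ratio of -2.29. Both stress genes were thus close to 0 in the library labelled 3 dpa. Other genes of the injury border list had smaller ratios, with desmin (*desma*, 956 and 340.2 CPM, -1.46), *actn1* (363 and 125 CPM, -1.46) and *nppa* (775 and 367 CPM, -1.06). Of its 28 members at 10 CPM or more, 10 were at least 2-fold lower and 1, *bag3*, was higher (21.7 and 76.8 CPM, 1.45). The median over 43 genes was -0.40. Of all genes, 7.72% were at least 2-fold lower and 3.80% higher. *rrad*, which restrains L-type calcium channels in heart muscle, stood at 272 CPM (3375 UMIs) and 26.9 to 33.3 CPM (342 UMIs), a ratio of -2.82.

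Genes of the cell cycle were low in both libraries and lower under the 3 dpa label. DNA replication genes had a median of -0.45, with 52 of 53 below 0, and 6 of the 11 at 10 CPM or more were at least 2-fold lower. Of all genes at a mean of 10 CPM or more, 70.0% were below 0 and 7.72% at least 2-fold lower. The summed level was 568 CPM (7035 UMIs) under UI and 203 CPM (2311 UMIs) under 3 dpa. Mitosis and cytokinesis genes had a median of -0.53, with 53 of 55 below 0 and 596 against 125 CPM in sum (7378 and 1432 UMIs). *diaph3*, a formin needed in cytokinesis, stood at 171 and 32.3 CPM (-2.09), *top2a*, which untangles replicated DNA, at 23.2 and 1.58 CPM (-1.52), and *mki67*, the Ki-67 proliferation antigen, at 16.8 and 1.66 CPM (-1.20). After every nucleus had been thinned to 500 UMIs, 5.72% (5.27 to 6.19) of nuclei labelled UI and 0.438% (0.313 to 0.595) of those labelled 3 dpa had at least 2 UMIs of the mitosis list. For the replication list the shares were 5.12% and 0.864%. Among the 1372 and 3277 cardiomyocyte-rich nuclei the mitosis shares were 1.24% and 0.214%. These shares rest on few nuclei, and UMIs of free RNA were not removed. The median of the mitosis list there was -0.24.

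Collagen and matrix genes were lower or did not pass 2-fold. Of 44 collagen and matrix genes at 10 CPM or more, 19 were at least 2-fold lower and 0 higher, and the median over 65 genes was -0.37. For the counts of this paragraph, the shares of all genes were 7.72% lower and 3.80% higher. Fibronectin (*fn1a*) gave 251 CPM (3112 UMIs) in the library labelled UI and 5.52 CPM (63 UMIs) in that labelled 3 dpa, a ratio of -4.07. The fibril-associated collagen gene *col12a1b* stood at 251 and 11.8 CPM (-3.58), and the fibrillar collagen genes *col1a1b*, *col1a2*, *col5a1* and *col1a1a* had ratios between -2.94 and -2.54. The metalloproteinase gene *adam8a* stood at 46.8 CPM (580 UMIs) and 0.263 CPM (3 UMIs), a ratio of -2.47 (-2.50 to -2.39). Among fibroblast and epicardial genes, 13 of 20 were lower and 1 higher (median -0.57), including *postnb*, periostin of activated fibroblasts (72.7 and 4.29 CPM, -2.53), and *aldh1a2*, the retinoic acid synthesising enzyme of epicardium and endocardium (104 and 13.5 CPM, -2.28). Fewer cells of a type and less RNA in each cell cannot be told apart in these sums. The share of nuclei with at least 2 of 500 UMIs on fibroblast or epicardial markers was 19.1% (18.3 to 19.9) under UI and 2.56% (2.25 to 2.90) under 3 dpa, and in cardiomyocyte-rich nuclei 7.65% and 0.275%. The cardiomyocyte-rich share gives the level at which these UMIs occur in nuclei of another type, and it too was higher under the UI label.

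Macrophage and red cell genes were lower under the 3 dpa label, and lymphocyte genes were lower in sum but mostly under 10 CPM. Macrophage genes had the lowest list median, -1.49, and 25 of 26 at 10 CPM or more were at least 2-fold lower, beside 7.72% of all genes. *marco*, a scavenger receptor, stood at 120 and 13.5 CPM (-2.47), *spi1b*, the myeloid factor PU.1, at 68.7 and 5.08 CPM (-2.38), and *csf1ra*, the growth factor receptor of macrophages, at 115 and 20.0 CPM (-2.05). Macrophage markers had at least 2 of 500 UMIs in 1101 of 9932 nuclei labelled UI (interval 10.5% to 11.7%) and 136 of 9140 labelled 3 dpa (1.25% to 1.76%), against 1.46% and 0.214% in cardiomyocyte-rich nuclei. The median depth of nuclei with these markers was 736 and 618 UMIs before thinning. Neutrophil markers were found in 0.393% and 0.0438% of nuclei (39 and 4 nuclei), and in 0 cardiomyocyte-rich nuclei of either library. Lymphocyte markers gave 0.524% and 0.186%. Of the 38 lymphocyte genes, 6 reached 10 CPM and 1 of them was at least 2-fold lower. Their summed level was 257 CPM under UI and 141 CPM under 3 dpa. The list's median of -0.036, without a filter on low genes, was close to the unfiltered median of all genes, -0.045.

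Red cell genes had a median of -0.98, with 15 of 29 at least 2-fold lower and 0 higher, beside 7.72% and 3.80% of all genes. The beta globin gene *hbba1* gave 2115 CPM (2089.7 to 2141) and 226 CPM (218 to 235), a ratio of -3.17, and was found in 7690 of 9932 nuclei labelled UI. Globin copies are nearly identical, so the split between *hbba1*, *hbba2*, *hbaa1* and *hbaa2* is uncertain, but all 4 had ratios between -3.41 and -2.73. Non-globin genes ran alike, with carbonic anhydrase (*cahz*, 376 and 30.1 CPM, -3.27), the anion exchanger gene *slc4a1a* (249 and 25.1 CPM, -2.88) and the haem synthesis gene *alas2* (190.5 and 34.4 CPM, -2.17). Red cell markers without globins were carried by 13.6% and 1.72% of nuclei, and by 7.73% and 0.793% of cardiomyocyte-rich nuclei. Thrombocyte genes had a median of -0.71, and their markers were carried by 3.30% and 1.89% of nuclei. The direction of these markers differed with the cardiomyocyte RNA of the nuclei. They gave 615 CPM under UI and 801 CPM under 3 dpa in nuclei with fewer than 10 cardiomyocyte marker UMIs of 500. With 10 to 19 the levels were 299 and 354 CPM, with 20 to 29 133 and 138 CPM, and with 30 or more 109 and 80.4 CPM. Of 24 endothelial and endocardial genes, 4 were at least 2-fold higher and 1 lower, beside 3.80% and 7.72% of all genes. *podxl* (147 and 390 CPM, 1.35), *spock3* (265 and 693 CPM, 1.35), the junction gene *cdh5* (54.5 and 129 CPM) and the VEGF receptor gene *kdrl* (37.6 and 89.6 CPM, 1.07) were the higher ones, and *aqp1a.1* the lower (76.3 and 21.1 CPM, -1.47). The share of nuclei with endothelial or endocardial markers was 5.98% (5.52 to 6.47) under UI and 9.43% (8.84 to 10.0) under 3 dpa. The median of that list, 0.01, changed sign between settings.

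**Figure D3:**
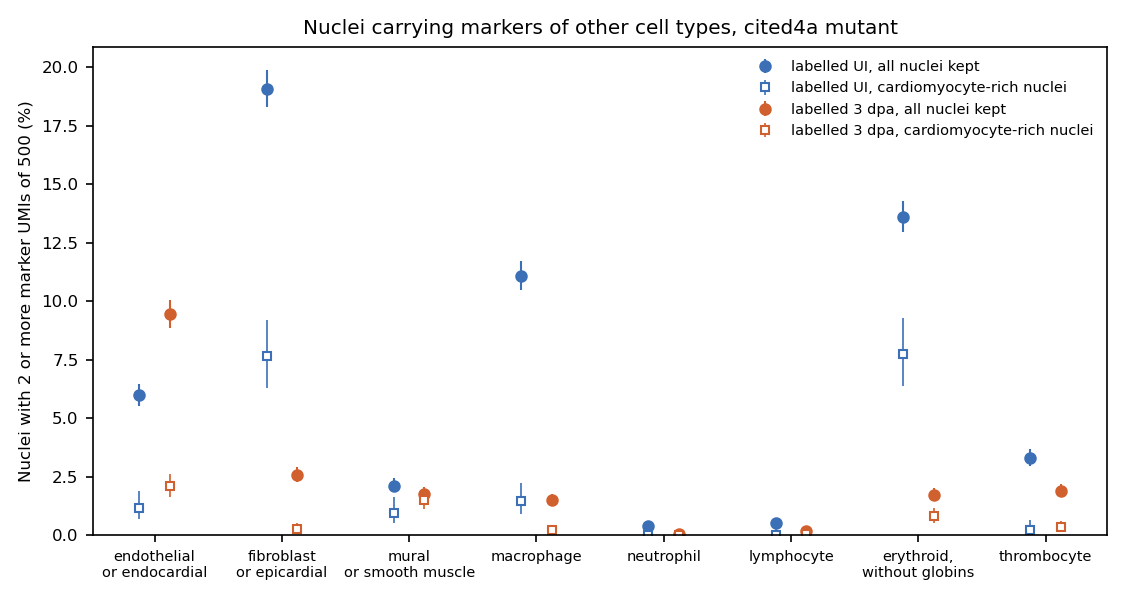
Percent of nuclei with at least 2 marker UMIs after thinning to 500 UMIs, for 8 cell types other than cardiomyocytes, in the libraries labelled UI (blue) and 3 dpa (orange). Filled circles are all nuclei kept, open squares cardiomyocyte-rich nuclei, and bars exact Clopper-Pearson intervals. Fibroblast, macrophage and red cell markers are several times as frequent under UI, and endothelial markers are more frequent under 3 dpa.

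Stress response genes were split. Of 28 AP-1 and immediate-early genes, 6 were at least 2-fold higher and 7 lower, beside 3.80% and 7.72% of all genes. The median of the list was -0.28. The lower ones included *cebpb* (97.7 and 6.66 CPM, -2.69), *fosl2* (74.7 and 3.86 CPM, -2.61), *junba* (68.9 and 3.59 CPM, -2.54) and *fosab* (39.3 and 2.37 CPM, -2.00). The higher ones included the orphan nuclear receptor gene *nr4a3* (8.23 and 105 CPM, 2.66), its relative *nr4a1* (16.5 and 71.5 CPM, 1.62) and *gadd45ba* (152 and 684 CPM). The AP-1 subunits and the NR4A receptors named here had opposite directions. They were picked for large ratios or after their values had been seen, so this does not describe either family as a whole. Of 33 heat shock and unfolded protein genes, 3 were higher and 8 lower, beside 3.80% and 7.72% of all genes. The lower ones included chaperones and a factor of the endoplasmic reticulum, *serpinh1b*, the collagen chaperone (58.9 and 6.13 CPM, -2.10), *hspa5*, or BiP (67.3 and 11.6 CPM, -1.84), and *xbp1* (105 and 23.4 CPM, -1.79). The higher ones were the small heat shock protein genes *hspb6* (14.9 and 88.9 CPM, 1.99) and *hspb3* (5.17 and 29.6 CPM, 1.39), and *bag3*.

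Among signalling lists, cytokine signalling had 11 of 32 members at least 2-fold lower and 0 higher (median -0.50). *socs3b*, a feedback inhibitor of JAK-STAT signalling, stood at 68.9 and 4.21 CPM (-2.47), and *nfkbiaa*, the NF-kappaB inhibitor, at 64.3 and 7.01 CPM (-2.13). The cytokine gene *il11a*, which is induced by heart injury in zebrafish, gave 20.9 CPM (259 UMIs) and 0.351 CPM (4 UMIs), a ratio of -1.58. In TGF-beta and BMP signalling, 2 of 43 genes at 10 CPM or more were at least 2-fold higher and 5 lower, with a median of -0.04. For all counts of this paragraph, the shares of all genes were 3.80% higher and 7.72% lower. The transducer gene *smad3b* was higher (70.5 and 596 CPM, 2.91). The BMP transducer gene *smad1* (174 and 49.5 CPM, -1.63) and the BMP target genes *id1* (41.3 and 3.07 CPM, -1.97) and *id2a* (29.6 and 3.24 CPM, -1.58) were lower. In retinoic acid signalling 2 of 13 genes were at least 2-fold higher and 1 lower, with a median of -0.06. The receptor gene *rarga* (77.5 and 482 CPM, 2.49) and *rbp4* (25.1 and 98.8 CPM, 1.63) were the higher ones, and *aldh1a2*, given above, the lower. In Notch signalling 2 of 21 genes were at least 2-fold higher and 1 lower, with a median of -0.07. The effector gene *her9* (18.9 and 99.5 CPM, 1.92) and the glycosyltransferase gene *lfng* (24.9 and 93.2 CPM, 1.57) were higher and *mfng* lower (55.9 and 7.62 CPM, -1.90). Within the circadian list 2 of 29 genes were at least 2-fold higher and 0 lower, with a median of 0.007. The repressor gene *nr1d2a* stood at 45.5 and 328 CPM (2.61), while its paralogue *nr1d2b* stood at 50.7 and 24.4 CPM (-0.82). Ribosomal protein genes had a median of -0.49, with 72 of 76 below 0, beside 70.0% of all genes. Of the 74 at 10 CPM or more, 4 were at least 2-fold lower and 0 higher, a lower share than the 7.72% of all genes.

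**Figure D4:**
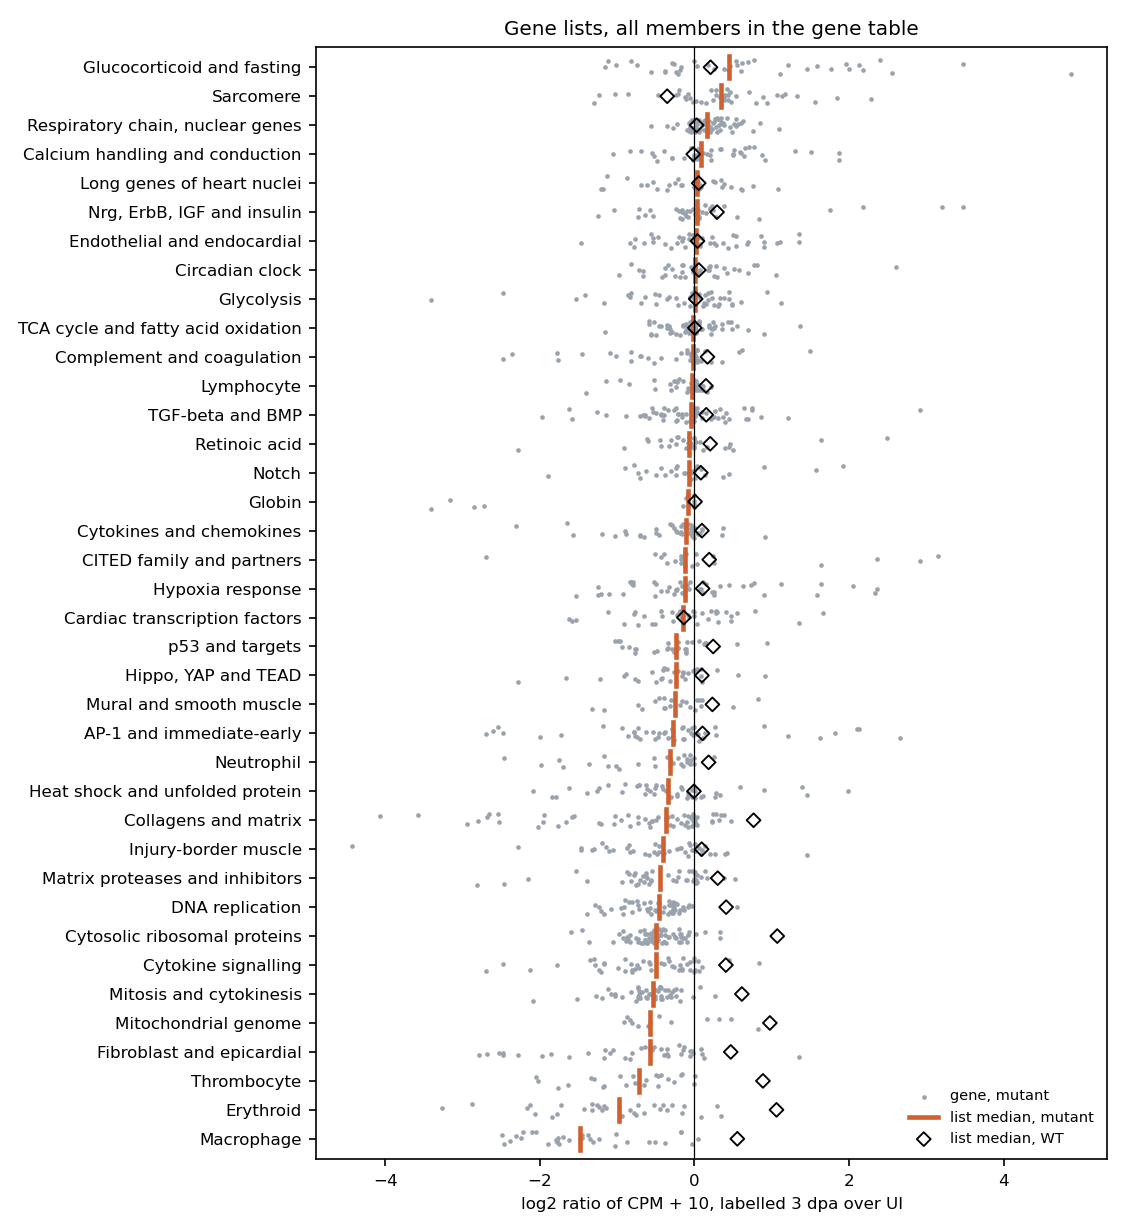
Gene lists ordered by the median over their members, in the mutant, of the log2 ratio (CPM + 10, 3 dpa label divided by UI label; horizontal axis). Grey points are single genes in the mutant, orange bars the list medians in the mutant and open diamonds the list medians in WT. Glucocorticoid and fasting genes (0.45) and sarcomere genes (0.35) are at the top, and macrophage genes (-1.49) at the bottom.

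The mutant gene table holds 2361 symbols that the WT table does not, of which 200 reached 10 CPM on average. Of these, 19 were at least 2-fold higher and 12 at least 2-fold lower, beside 3.80% and 7.72% of all genes. The share of lower ones was thus near that of all genes. Nearly all of the 200 have clone names (197), so no role is given for them. These symbols took up 10.8% of UMIs labelled UI and 9.34% of UMIs labelled 3 dpa. Most of that came from *CR383676.2* (ENSDARG00000099970), with 89444 and 73104 CPM (-0.29), present in every nucleus of both libraries. The largest ratios were those of *AL590151.2* (3.96 and 187 CPM, 3.82), *BX927123.1* (35.4 and 387 CPM, 3.13), *CR626944.2* (24.4 and 214 CPM) and *CR356233.1* (29.4 and 159 CPM) on the higher side, and of ENSDARG00000103720 (132 and 23.2 CPM, -2.10) on the lower side. The first of these was all but absent under the UI label, with 49 UMIs against 2132.

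Set beside the WT pair, with the same limits on nuclei and the same ratio, many genes ran in opposite directions. WT levels were scaled over the symbols in both gene tables, and mutant levels over the full mutant table. The WT matrices held 0 barcodes under 500 UMIs, against 19868 (UI) and 2704 (3 dpa) in the mutant. Of the WT barcodes, 98.4% (UI) and 85.4% (3 dpa) were kept. WT had 534 of 8956 genes at least 2-fold higher (5.96%) and 121 at least 2-fold lower (1.35%). Over 7861 symbols at 10 CPM or more in both genotypes, the ratios had a Pearson correlation of -0.41 and a Spearman correlation of -0.42 across genes, which are not independent replicates. Over all these symbols, 5329 were above 0 in WT, 471 at least 2-fold higher and 109 at least 2-fold lower. Of 610 such symbols that were at least 2-fold lower in the mutant, 196 were at least 2-fold higher in WT and 4 at least 2-fold lower. Of 281 that were higher in the mutant, 25 were at least 2-fold higher and 14 at least 2-fold lower in WT. All 20 genes with the lowest mutant ratios were above 0 in WT, 17 of them at least 2-fold, with *col12a1b* at 12.4 and 630 CPM (4.83) and *fn1a* at 323 CPM labelled 3 dpa (3.92) in WT. Of the 20 genes with the highest mutant ratios, 12 were above 0 in WT and 8 below. In WT, 6 of the 20 were at least 2-fold higher as well, among them *irs1* (1.75), *klf13* (1.82) and *fkbp5* (599 and 1290.1 CPM, 1.09). The 2 that were at least 2-fold lower in WT were *mylk4b* (456 and 139 CPM, -1.65) and *cited4a* (-1.36). The matrices were used under the names they were deposited with. List medians of matrix, macrophage, red cell and cell cycle genes were above 0 in WT and below 0 in the mutant, so genes of injury may run opposite to WT. The injury border list was less clear. Its median was -0.40 in the mutant and 0.09 in WT, where the median over the 7861 symbols was 0.17. Its summed level was lower under the 3 dpa label in both pairs. The sums were 23021 and 15634.5 CPM in WT, and 13204 and 11291 CPM in the mutant. With 1 matrix a condition, an effect of genotype on injury and a difference between libraries or their labels cannot be told apart, and every direction given here rests on the labels.

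**Figure D5:**
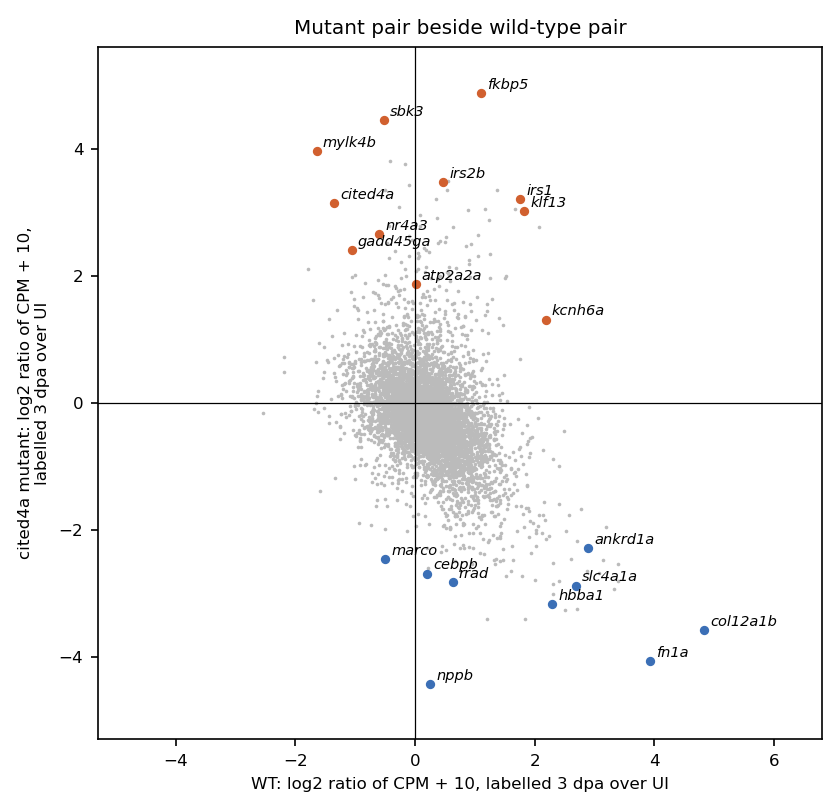
Each point is 1 of 7861 genes, with its log2 ratio (CPM + 10, 3 dpa label divided by UI label) in WT on the horizontal axis and in the mutant on the vertical axis. Named genes are orange where the mutant ratio is above 0 and blue where it is below; *col12a1b*, *fn1a*, *hbba1* and *ankrd1a* are at the lower right, high in WT and low in the mutant.

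The number of nuclei rich in cardiomyocyte RNA differed between the libraries, so the named genes were also summed in those nuclei alone. Nuclei with at least 30 of 500 thinned UMIs on the cardiomyocyte markers numbered 1372 of 9932 (13.8%) under UI and 3277 of 9140 (35.9%) under 3 dpa. In them, 311 of 7845 genes were at least 2-fold higher (3.96%) and 265 at least 2-fold lower (3.38%), with a median of -0.13. All 20 genes with the highest ratios stayed past 2-fold, between 2.57 and 4.78, with *fkbp5* at 4.78 and *cited4a* at 2.98. All 20 with the lowest ratios stayed past 2-fold too, between -3.87 (*nppb*) and -1.37 (*gpc1b*). Cardiomyocyte-rich nuclei are part of the nuclei in which these genes were picked, so this is not an independent check. The lowest 20 also include globin and collagen genes, such as *hbba1* with 1240 and 131 CPM in these nuclei. UMIs of free RNA were not removed, so such levels need not come from cardiomyocytes. The count of lower genes was less than that over all nuclei by more than 1.5 times, whereas the count of higher genes was close to it.

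The level of *fkbp5* in the 3 dpa library hardly depended on how much cardiomyocyte RNA a nucleus held. It was 2804 CPM in the 359 nuclei with fewer than 10 marker UMIs of 500, 2948 CPM in those with 10 to 19, 2893 CPM in those with 20 to 29 and 2777 CPM in those with 30 or more. In the UI library the same classes gave 75.2 to 106 CPM. *irs2b* instead went from 443 to 1498 CPM between the lowest and the highest class of the 3 dpa library, *nr4a3* from 20.3 to 128 CPM (6 and 609 UMIs), and *epas1b* the other way, from 1588 to 131 CPM. *nppb* stayed between 7.29 and 12.1 CPM in all classes labelled 3 dpa and between 263 and 558 CPM in all classes labelled UI. The barcodes left out by the limits had the same directions. In those under 500 UMIs, *fkbp5* gave 97.7 and 2849 CPM and *nppb* 435 and 11.3 CPM, and in those over the mitochondrial limit *fkbp5* gave 84.2 and 2158 CPM and *nppb* 323 and 8.93 CPM.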

How the data were processed

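The authors deposited 1 matrix of raw UMI counts per gene and barcode for each of 4 groups. Per the submitters' processing notes, Cell Ranger 7.0.0, R 4.2.0 and Seurat 4.3.0 were used with GRCz11. How introns were counted and cells called was not given in the sources read. Per the labels' protocols, nuclei came from frozen hearts and libraries from a 10x kit for 3′ ends. Single nuclei yield shallow counts that include unspliced RNA, and free RNA enters other nuclei's counts. Whether the 4 samples listed for each group are lanes of 1 library is not stated.

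Nuclei are barcodes at 500 UMIs or more with no more than 5% of UMIs on mitochondrial genes, doublets were not removed, and UMIs were summed over all nuclei of a library. Symbols with 2 or more IDs were summed (513), which gave 27114 symbols. Ratios are log2 of CPM + 10, and counts of genes past 2-fold use a mean of at least 10 CPM. Intervals are exact Poisson for levels, exact binomial conditional on the gene's UMIs for ratios and Clopper-Pearson for shares. Shares use nuclei thinned to 500 UMIs (seed 11). The members and the 38 gene lists were chosen with earlier results of these data known. Named genes were taken from the 20 highest and 20 lowest genes at a mean of at least 50 CPM, without mitochondrial genes and clone or locus names. They were also taken from up to 4 members of each list with the largest ratios at 10 CPM or more, the 5 genes of the mutant table alone with most UMIs and the 5 with the largest ratios, and *cited4a* and *pln*. Not every gene so picked is described. Names outside this rule were chosen after their values were seen. Also, 1 gene within it is not reported here. List medians cover every member in the gene table, without a filter on low values.

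The 14 processing alternatives for the counts used other pseudocounts, filters, barcodes, gene tables and scalings. TMM and median-of-ratios factors came from edgeR 4.0.16 and DESeq2 1.42.0 in R 4.3.3, with no model fitted. A gate of 5 of 500 cardiomyocyte marker UMIs held 90.2% and 99.6% of nuclei, so a gate of 30 was added after seeing the data. The ratio, its interval and the thinning were checked on simulated counts with counting error only, so differences between libraries were not covered. Sums used Python 3.11.15, numpy 2.4.6, scipy 1.17.1 and pandas 2.3.3.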

Additional observations from a re-analysis of the deposited data

Results flagged for a closer look

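The results below ran one way in the mutant pair and the opposite way in the WT pair. With 1 matrix a group, the difference between the genotypes was not tested. They comprise 12 gene lists, with medians of at least 0.3 in size in both pairs, and 20 genes, 19 with log2 ratios of 2 or more in size in both pairs, and *cited4a*. Genes were sought only among those named by the rule given above, most of which were picked for large mutant ratios. The 20 are therefore not a tally over all genes, and their directions partly reflect that choice.

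Of the lists, the sarcomere list was the only one of the 12 that was higher under the 3 dpa label in the mutant, with a median of 0.35 against -0.35 in WT. The median of DNA replication genes was -0.45 in the mutant and 0.41 in WT, and that of mitosis and cytokinesis genes -0.53 and 0.61. Collagens and matrix genes had medians of -0.37 and 0.76, matrix proteases and inhibitors -0.45 and 0.30, and fibroblast and epicardial genes -0.57 and 0.47. Among blood lists, macrophage genes had medians of -1.49 and 0.55, erythroid genes -0.98 and 1.06, and thrombocyte genes -0.71 and 0.89. In the mutant, the direction of thrombocyte markers differed between nuclei with little and with much cardiomyocyte RNA. Cytokine signalling genes had -0.50 and 0.41, the mitochondrial genome -0.57 and 0.98, and cytosolic ribosomal proteins -0.49 and 1.07. The mitochondrial genome list holds the genes on which the limit for nuclei acts, so its medians are not independent of that limit. As a share of UMIs in kept nuclei, these genes went from 1.99% to 1.22% in the mutant and from 0.681% to 1.42% in WT. The part of this share in the other results was not tested.

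Of the genes, *cited4a* was higher under the 3 dpa label in the mutant (3.14) and lower in WT (-1.36). The other 19 were lower in the mutant and higher in WT. The mutant ratios of matrix genes were -4.07 for *fn1a*, -2.03 for *fn1b*, -3.58 for *col12a1b*, -2.81 for *col12a1a*, -2.94 for *col1a1b*, -2.54 for *col1a1a*, -2.68 for *col1a2*, -2.66 for *col5a1* and -2.53 for *postnb*. Their WT ratios ran from 2.31 for *postnb* to 4.83 for *col12a1b*. The metalloproteinase genes *adam8a* and *adam8b* had mutant ratios of -2.47 and -2.15. Red cell genes had -3.27 for *cahz*, -3.17 for *hbba1*, -2.85 for *hbaa1*, -2.88 for *slc4a1a* and -2.17 for *alas2*. The others were *krt4* (-2.79), *ankrd1a* (-2.29) and *diaph3* (-2.09).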

How the results depend on the processing

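The counts of genes past 2-fold moved with the pseudocount, the filter on low genes and the scaling, and that of lower genes also in cardiomyocyte-rich nuclei. Against 332 higher and 675 lower genes, a pseudocount of 50 gave 165 and 140, a pseudocount of 1 gave 453 and 1270, TMM scaling gave 501 and 416, median-of-ratios scaling 504 and 409, and a mean of at least 50 CPM 218 and 229, where fewer genes are measured. Cardiomyocyte-rich nuclei (at least 30 of 500 marker UMIs, added after seeing the data) had 265 lower genes, against 513 with the gate of 5. The remaining settings kept both counts within 1.5 times, at 309 to 396 higher and 612 to 996 lower genes.

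No list median of the 6 lists named in the design changed sign. With pseudocounts of 1 and 50 the medians were -1.40 and -0.13 for DNA replication, -1.88 and -0.14 for mitosis, -0.61 and -0.13 for collagens and matrix, and -2.31 and -0.67 for macrophage genes, and with 50 the injury border median was -0.14. All deposited barcodes gave -0.70 for mitosis, 0.55 for sarcomere, -0.57 for collagens and -1.92 for macrophage genes, and a limit of 10% mitochondrial UMIs gave -0.55 for collagens and -1.65 for macrophage genes. Cardiomyocyte-rich nuclei gave -0.24 for mitosis, 0.092 for sarcomere, -0.17 for collagens and -0.94 for macrophage genes. The sarcomere value there is partly set by the markers that select these nuclei. TMM and median-of-ratios scaling gave 0.60 and 0.61 for sarcomere, and -1.31 for macrophage genes with either, and nuclei thinned to 500 UMIs gave -1.69 for macrophage genes. The *cited4a* ratio was 3.48 and 2.29 with pseudocounts of 1 and 50, 3.40 and 3.41 with the 2 scalings and 2.98 in cardiomyocyte-rich nuclei. Counting nuclei with at least 1 macrophage marker UMI made the difference in share -21.8 points in place of -9.60.

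Of 384 medians of the 32 other lists under 12 other settings, 360 kept their sign. The reversals were cardiac transcription factors (0.018 with TMM, 0.026 with median-of-ratios scaling), the CITED family and its partners (0.051 and 0.057) and the median of all genes (0.0069 with median-of-ratios scaling). The other medians that changed sign lay between -0.08 and 0.03 as reported. The cause of each shift was not tested.

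No paired analysis was possible because each group is 1 matrix without replicate columns, and for the same reason no run leaves out a replicate. Promoter motifs, listed in the design, were not run, since no promoter sequences were used here. Depth limits low genes most: at fewer than 10 UMIs in a library, as for *ankrd1a*, *adam8a* and *il11a* under the 3 dpa label, ratios are bounded mainly by the pseudocount.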
